A study of Mus musculus with 6 samples.

Results

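The expression of 9 complement genes was measured in corneas of mice aged 20 weeks. They are the activators C1ra, C1s1, C2, C4b, C3 and Cfb and the regulators Serping1, Cd55 and Cd59a, chosen by name, 9 of the 55421 genes listed in each count file. RNA came from 3 corneal libraries heterozygous for a PAX6 mutation, here M1 to M3, and from 3 wildtype libraries, here W1 to W3. The series design names the libraries of each genotype biological replicates. Which PAX6 allele was used, the strain, the sex and any pooling of corneas do not stand in the labels. PAX6 is a transcription factor of eye development and corneal epithelial identity, and people who carry a single working copy have aniridia with corneal disease.

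Complement is a cascade of proteases and binding proteins that marks surfaces for removal. In the classical pathway C1q activates the proteases C1r and C1s, which cut C4 and C2 to form an enzyme that cleaves C3. The alternative pathway uses factor B with C3 itself, and both routes lead to the terminal proteins that form a pore in membranes. The C1 inhibitor (Serping1) blocks C1r and C1s, CD55 breaks up the enzymes that cleave C3, and CD59 blocks the pore. The cornea carries complement proteins together with these regulators.

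Positions are given on the mouse build GRCm38. C4b (chromosome 17, 34728380 to 34743882), Cfb (34856374 to 34862518) and C2 (34862604 to 34898265) sit together on the minus strand in the class III region of the major histocompatibility complex, and C3 lies farther along the same chromosome (57203970 to 57228136, minus strand). C1ra (chromosome 6, 124512405 to 124523443, plus strand) and C1s1 (124530345 to 124542359, minus strand) adjoin each other. Serping1 (84765387 to 84775444, minus strand) and Cd59a (104095801 to 104115354, plus strand) are on chromosome 2 and Cd55 (130439027 to 130462744, minus strand) is on chromosome 1. All are annotated as protein-coding, and counts cover their exons as a whole.

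Promoter sequence was held for 5 of the 9 members in the RefSeq table (build GRCm38.p6). The 250 bases before the annotated start are shown for C3 and Cd55, whose values across the libraries were alike, for C1s1, whose pattern differed from theirs, and for Cd59a, which did not pass the test. They lie at chr17:57228137-57228386 (C3), chr1:130462745-130462994 (Cd55) and chr6:124542360-124542609 (C1s1), all on the minus strand, and at chr2:104095551-104095800 (Cd59a, plus strand). Capitals mark matches, on either strand, to the C/EBP motif TTNCNNAA in C3 and C1s1 and to an interferon response consensus in Cd59a.
C3: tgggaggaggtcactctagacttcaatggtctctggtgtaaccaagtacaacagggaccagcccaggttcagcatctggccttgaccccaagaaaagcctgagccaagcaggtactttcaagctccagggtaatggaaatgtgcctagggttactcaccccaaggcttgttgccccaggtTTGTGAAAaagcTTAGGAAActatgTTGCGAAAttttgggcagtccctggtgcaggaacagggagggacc
Cd55: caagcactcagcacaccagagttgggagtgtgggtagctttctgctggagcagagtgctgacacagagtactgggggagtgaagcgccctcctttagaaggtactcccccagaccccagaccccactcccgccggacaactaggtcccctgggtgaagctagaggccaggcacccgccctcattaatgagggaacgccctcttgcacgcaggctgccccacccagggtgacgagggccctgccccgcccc
C1s1: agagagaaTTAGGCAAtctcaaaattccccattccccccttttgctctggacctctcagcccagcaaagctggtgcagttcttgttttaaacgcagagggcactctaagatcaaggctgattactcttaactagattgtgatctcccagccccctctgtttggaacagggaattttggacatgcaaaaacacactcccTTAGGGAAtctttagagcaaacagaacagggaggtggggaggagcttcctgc
Cd59a: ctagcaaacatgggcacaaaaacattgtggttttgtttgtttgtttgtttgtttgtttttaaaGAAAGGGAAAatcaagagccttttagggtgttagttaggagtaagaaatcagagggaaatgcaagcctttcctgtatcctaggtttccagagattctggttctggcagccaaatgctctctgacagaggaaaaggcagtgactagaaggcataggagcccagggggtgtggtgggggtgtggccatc

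The C3 window held 3 C/EBP matches, between 70 and 38 bases before the start, and the C1s1 window held 2. RefSeq gives C1s1 another start, and the window before it (chr6:124542322-124542571, not shown) held 1. The C1ra window, also not shown, held 2. Of 32851 promoter windows of the same length, 36.8% held at least 1 such match and 2.61% at least 3. The interferon response motif of the Cd59a window was found in 2.98% of the windows. The other motifs searched on both strands were the STAT motif TTCNNNGAA (7.02% of windows), the AP-1 motif TGANTCA (6.75%) and the NF-kB motif by its consensus (7.25%). None of these 3 matched in the 4 windows shown, and the Cd55 window held no match to any of the 5. A match in these letters describes the sequence and is not a measured site.

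Gene counts per library were 16858005 to 21846406, and the 9 members took 0.0160% to 0.0609% of them. Values below are CPM, counts scaled to a common library total with TMM factors, with mean ± SD of 3 libraries where given; log2 fold changes are mutant minus wildtype, ± SE, and the adjusted p is from edgeR's quasi-likelihood test over all genes with Benjamini-Hochberg adjustment. Pax6 itself stood at 454, 394 and 356 CPM in M1 to M3 and 849, 746 and 774 CPM in W1 to W3, with no overlap. W1 lay apart from the other libraries on the first principal component. Markers of other cells also differed between genotypes: the summed level of 9 leukocyte markers was 89.1 to 121 CPM in mutant and 27.9 to 29.5 CPM in wildtype, and that of 9 keratocyte and fibroblast markers 833 to 4865 CPM and 382 to 452 CPM. The 8 corneal epithelial markers summed to 19459 to 25960 CPM in mutant and 38147 to 52486 CPM in wildtype, and 6 conjunctival markers to 6197 to 7630 CPM and 372 to 659 CPM. The corneal epithelial markers did not move alike: Krt12, Tkt and Pax6 itself fell, and 4 were not called. Krt14 rose, from a mean of 366 CPM in wildtype to 1466 CPM in mutant. The 4 liver plasma protein markers, for the main source of plasma complement, summed to 2.63 to 3.72 CPM in mutant and 0 to 21.1 CPM in wildtype, nearly all of it Ttr, which the eye also makes; Alb, for albumin, was at 0 in all libraries. The part of these markers in the members' differences was not tested. In bulk corneas, a change in how many cells of a type are present and a change in RNA per cell cannot be told apart.

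Of the activators 4 of 6, and of the regulators 2 of 3, rose in mutant corneas. Of the 9 members, C1ra, C1s1, C4b, C3, Serping1 and Cd55 rose, C2 and Cd59a did not pass the test, Cfb had too few counts to be tested, and none fell. That is 6 of 8 tested members, where 10.1% of the 15209 genes tested were called in either direction and 5.59% were called higher. At an unadjusted p under 0.05 (edgeR) the count was 7 higher, with C2 added, and 0 lower. The share of all genes at that threshold was not computed. DESeq2 and limma-voom each called 6 members higher and 0 lower. Of all 15209 genes tested, DESeq2 called 1325 higher and 1033 lower, and limma-voom 906 higher and 718 lower. The 8 tested members had a median log2 fold change of 1.91, against 0.0095 over all genes tested. In 7 of the 8 the 2 genotypes did not overlap, as held for 31.9% of all genes tested, 17.1% with mutant higher and 14.7% with mutant lower. C2 entered the test only through its mutant libraries, so its direction there was in part fixed by the low-count filter.

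Leaving out a library changed this count. With W1 omitted, the library that lay apart, it was 6. It was 3 with M1 omitted, 1 with M2 or M3 omitted, 4 with W2 omitted and 2 with W3 omitted. Over all genes tested, 850 were called higher with all 6 libraries and 1227 with W1 omitted. That number was 455 with M1 or M2 omitted, 340 with M3 omitted, 574 with W2 omitted and 542 with W3 omitted. Serping1 was called in each of these 6 fits. All called members had an adjusted p above 0.01, and at that threshold edgeR called 0 members, limma-voom 0 and DESeq2 5. Over all genes tested edgeR then called 307 higher and 261 lower. For limma-voom and DESeq2 the counts over all genes at 0.01 were not taken.

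**Figure D1:**
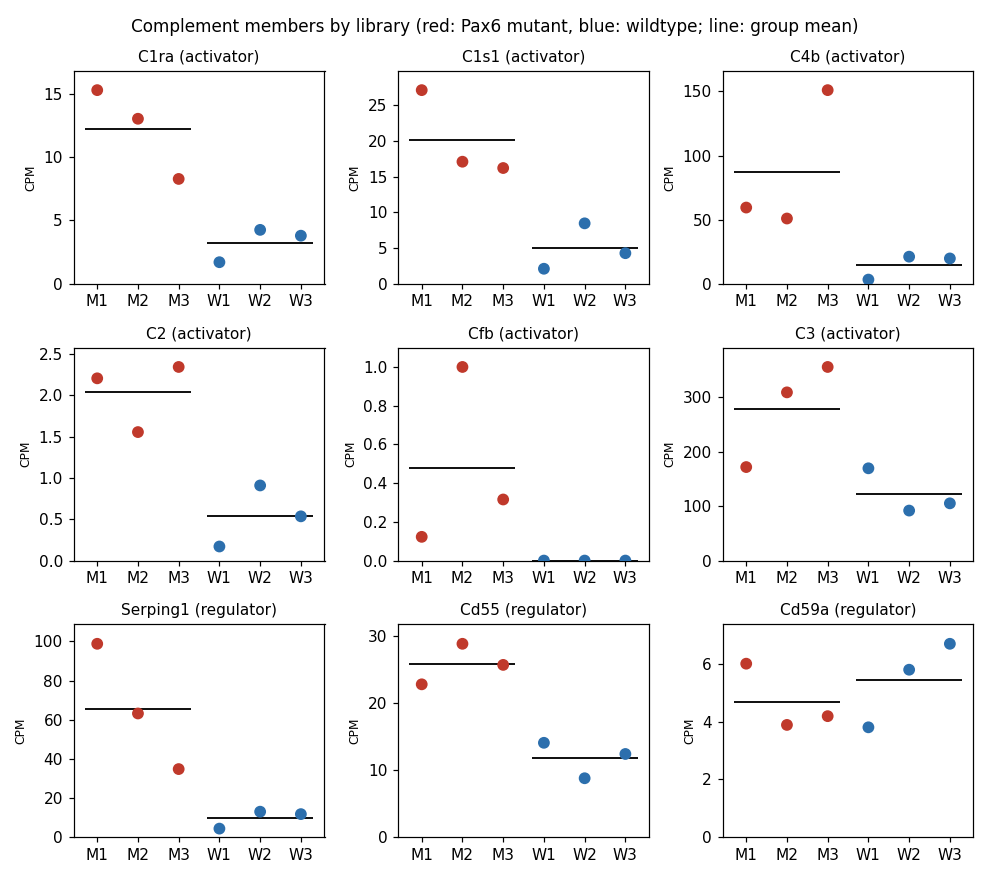
CPM (vertical axis, from 0, own scale for each gene) of the 9 complement members in the 3 mutant libraries (M1 to M3, red) and 3 wildtype libraries (W1 to W3, blue); points are libraries and lines are group means. The groups are apart in 8 genes, narrowly so in C3, where M1 stands at 172 CPM and W1 at 170 CPM, and overlap in Cd59a.

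The proteases of the C1 complex were higher in every mutant library. C1ra, which encodes the protease C1r that C1q activates first, stood at 15.3, 13.0 and 8.28 CPM in M1 to M3 and at 1.70, 4.26 and 3.80 CPM in W1 to W3. The lowest mutant value was above the highest wildtype value, and C1ra rose by 1.90 ± 0.41 (3.74-fold, adjusted p = 0.025, edgeR). C1s1, which encodes the protease C1s that cuts C4 and C2, stood at 27.1, 17.1 and 16.2 CPM in M1 to M3 and at 2.10, 8.46 and 4.28 CPM in W1 to W3. It also rose without overlap, by 2.02 ± 0.48 (4.07-fold, adjusted p = 0.033, edgeR). W1 was the lowest library for both genes and M1 the highest. Neither call held without M1, M2, M3 or W3, where the adjusted p by edgeR was 0.050 to 0.098 for C1ra and 0.087 to 0.13 for C1s1. The ratio of C1s1 to C1ra counts was 1.31 to 1.96 in mutant and 1.13 to 1.99 in wildtype libraries, which overlap. Of the 100-base stretches of the C1ra transcript, 34.5% also occur in its close copy C1rb, and 7.90% of those of C1s1 in C1s2. The copies themselves had few counts, 1, 1 and 0 for C1rb in M1 to M3 and 0, 1 and 0 in W1 to W3, and for C1s2 7, 0 and 0 and again 0, 1 and 0. An antisense gene overlaps 18.4% of the C1s1 exon bases and was at 0 in all libraries.

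C4b, the substrate of C1s, varied widely between libraries. It stood at 59.4, 50.9 and 151 CPM in M1 to M3 and at 3.23, 21.1 and 19.7 CPM in W1 to W3. M3 was well above the other mutant libraries and W1 well below the other wildtype libraries, and the groups did not overlap. C4b rose by 2.57 ± 0.67 (5.93-fold) with an adjusted p of 0.049 by edgeR. The log2 difference was 1.89 without M3 (adjusted p = 0.19, edgeR), and the call was also lost without M1 (0.090), M2 (0.083), W2 (0.093) or W3 (0.086). C4a, the neighbouring copy that shares 16.5% of the 100-base stretches of C4b, stood at 1.78, 1.22 and 2.34 CPM in mutant and 0.511, 0.965 and 0.963 CPM in wildtype libraries (adjusted p = 0.31, edgeR).

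C2, the second substrate of C1s, was low throughout. It stood at 2.20, 1.55 and 2.34 CPM in M1 to M3 and at 0.170, 0.908 and 0.535 CPM in W1 to W3. The groups did not overlap, but the difference of 1.91 ± 0.71 had an adjusted p of 0.15 (edgeR). Cfb, the factor B of the alternative pathway, had 2, 18 and 7 counts in M1 to M3 and none in the wildtype libraries. Taking 3 counts in all wildtype libraries together as the floor, Cfb was at least 8.58-fold higher in mutant, a bound that covers counting error only and was 4.20-fold without M2 and 5.61-fold without W3. With no low-count filter its adjusted p was 0.086 (edgeR). Both genes are uncertain: the annotated read-through gene Gm20547 covers 79.5% of the exon bases of Cfb and 42.8% of those of C2 on the same strand. Gm20547 was at 0 in all 6 libraries, and the deposited counts do not show how read pairs on the shared exons were treated, so both levels may be too low in either genotype.

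C3, the central protein whose cleavage all pathways share, was the most abundant member per exon length by mean. It stood at 172, 309 and 356 CPM in M1 to M3 and at 170, 91.9 and 105 CPM in W1 to W3. M1 and W1 were nearly equal, and the other mutant libraries were above all wildtype libraries. C3 rose by 1.19 ± 0.31 (2.28-fold, adjusted p = 0.049, edgeR). The call was lost with RLE size factors (adjusted p = 0.052, edgeR) and without M2 (0.15), M3 (0.18), W2 (0.15) or W3 (0.13). No transcript of another annotated gene shared a 100-base stretch with C3. The genes whose centred log2 CPM was most like that of C3 over the 6 libraries were Chac1, Slc5a8 and Plet1, with root mean square differences of 0.16, 0.17 and 0.18. Slc5a8, a monocarboxylate transporter of epithelia, passed the test (log2 fold change 1.33), and Chac1 and Plet1 did not.

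Serping1, the inhibitor of C1r and C1s, and C4b had the largest fold changes of the members tested over all 6 libraries, within their SEs of each other. Serping1 stood at 98.7, 63.2 and 34.8 CPM in M1 to M3 and at 4.48, 13.1 and 11.9 CPM in W1 to W3. The lowest mutant library was above the highest wildtype library, and the mutant libraries differed widely among themselves. Serping1 rose from 9.82 ± 4.67 to 65.6 ± 32.0 CPM, by 2.74 ± 0.48 (6.66-fold, adjusted p = 0.011, edgeR). The keratocyte and fibroblast markers were likewise highest in M1 and lowest in M3, at 4865, 2011 and 833 CPM in sum in M1 to M3, and stood at 393, 452 and 382 CPM in W1 to W3. Of these 9 markers 5 rose and none fell, where 5.59% of all genes tested rose and 4.46% fell. Among those that rose was Col1a1, the main collagen chain of the stroma. Col1a1 was at 2704, 1013 and 383 CPM in M1 to M3 and 224, 138 and 164 CPM in W1 to W3. Kera, Lum, Col3a1 and Pdgfra were not called, and Pdgfra overlapped between genotypes. Without Col1a1 and Col1a2 the marker sums were 843, 467 and 243 CPM in M1 to M3. In W1 to W3 they were then 80.2, 193 and 134 CPM. The part of these markers in the rise of Serping1, C1ra and C1s1 was not tested.

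Cd55, the membrane protein that breaks up the C3-cleaving enzymes, was the most even of the members that rose. It stood at 22.8, 28.8 and 25.7 CPM in M1 to M3 and at 14.1, 8.80 and 12.4 CPM in W1 to W3. The groups were clearly apart, and Cd55 rose by 1.13 ± 0.22 (2.19-fold, adjusted p = 0.015, edgeR). The call was lost without M2 (adjusted p = 0.069, edgeR) or M3 (0.068). Its copy Cd55b had 1 count in M3 and none elsewhere. Cd59a, the membrane inhibitor of the terminal pore, stood at 6.0, 3.88 and 4.19 CPM in M1 to M3 and at 3.80, 5.79 and 6.69 CPM in W1 to W3. These ranges overlap, and the difference of -0.21 ± 0.36 did not pass (adjusted p = 0.78, edgeR); the estimate was between -0.64 and -0.06 over the alternatives. The related Cd59b had 0, 4 and 1 counts in M1 to M3 and 11, 6 and 6 in W1 to W3 and was too low to be tested.

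Summed over the 6 activators, the level was 276, 393 and 534 CPM in M1 to M3 and 177, 127 and 134 CPM in W1 to W3. Summed over the 3 regulators it was 128, 95.9 and 64.7 CPM in M1 to M3 and 22.4, 27.7 and 31.0 CPM in W1 to W3. Both sums were higher in every mutant library. M1 had the lowest activator sum and the highest regulator sum of the mutant libraries, and M3 the reverse. The ratio of activators to regulators was 2.17, 4.10 and 8.26 in M1 to M3 and 7.91, 4.57 and 4.31 in W1 to W3, so the genotypes overlapped and the widest spread was within the mutant group. C3 made up 62.3% to 78.7% of the activator sum in mutant and 72.6% to 95.9% in wildtype libraries. With the mean of log2 CPM in place of the sum, the difference between genotypes was 0.78 and not -0.36 on the log2 scale, again with overlap.

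**Figure D2:**
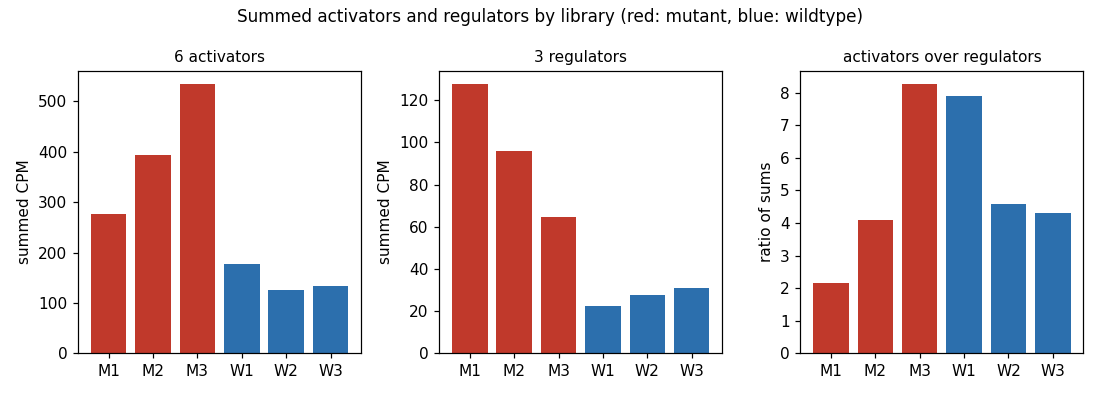
Summed CPM of the 6 activators (left), of the 3 regulators (middle) and the ratio of the sums (right), by library (mutant M1 to M3 in red, wildtype W1 to W3 in blue); bars start at 0. Both sums are higher in all mutant libraries, while the ratio runs from 2.17 in M1 to 8.26 in M3 and overlaps the wildtype range of 4.31 to 7.91.

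Single pairs of an activator and a regulator gave different pictures. The log2 ratio of C3 to Cd55 was 2.92 to 3.79 in mutant and 3.08 to 3.59 in wildtype, with means of 3.38 ± 0.44 and 3.35 ± 0.26 (SD, n = 3 each). The log2 ratio of C1ra to Serping1 was -2.69, -2.28 and -2.07 in M1 to M3 and -1.40, -1.62 and -1.64 in W1 to W3, without overlap, so the inhibitor was higher relative to C1ra in each mutant library. The log2 ratio of C1s1 to Serping1 overlapped, at -1.89 to -1.10 in mutant and -1.47 to -0.63 in wildtype. The log2 ratio of C3 to Cd59a also overlapped, at 4.84 to 6.41 and 3.98 to 5.48. These ratios are descriptions of the libraries and were not tested.

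The members fell into different patterns across the libraries. Centred on each gene's mean over the 6 libraries, on the log2 scale, C3 and Cd55 differed by a root mean square of 0.29 and C1ra and C1s1 by 0.33. C1s1 and C2 differed by 0.30, while C3 and Serping1 differed by 1.32. W1 showed the split most plainly: it had the lowest wildtype level of C1ra, C1s1, C2, C4b, Serping1 and Cd59a and the highest wildtype level of C3 and Cd55. Among the marker lists, W1 was also lowest for blood vessel endothelium, at 2.78 CPM in sum against 33.4 and 40.5 CPM in W2 and W3, and for melanocytes and uvea, at 9.82 CPM against 305 and 187 CPM. Its corneal epithelial sum was the highest, at 52486 CPM against 45439 and 38147 CPM. The part of these markers in the members' patterns was not tested.

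**Figure D3:**
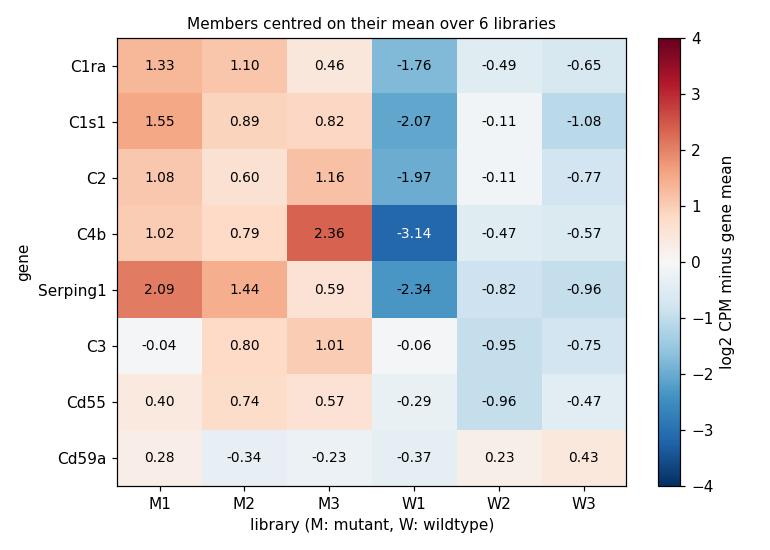
Log2 CPM of the 8 tested members in each library, less the gene's mean over the 6 libraries (colour and printed value; M1 to M3 mutant, W1 to W3 wildtype). C4b at -3.14 and Serping1 at -2.34 are far below their means in W1, where C3 stands at -0.06 and Cd55 at -0.29.

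Levels can be compared between members only per exon length, as CPM per kb of annotated exon. In wildtype C3 was highest, at 17.9 to 33.0 CPM per kb, above all other members in each library. Serping1 (mean 4.23), Cd59a (3.00), C4b (2.58), Cd55 (2.42), C1s1 (1.58) and C1ra (1.09) followed in this order of means, and each overlapped its neighbour in range. C2 stood at 0.044 to 0.23, below these, and Cfb at 0. In mutant the order of means was C3 (54.2), Serping1 (28.2), C4b (15.3), C1s1 (6.44), Cd55 (5.30), C1ra (4.10), Cd59a (2.59), C2 (0.52) and Cfb (0.17). Serping1 overlapped both C3 and C4b in range there, while C3 and C4b did not overlap each other, and C1s1, Cd55, C1ra and Cd59a each overlapped the next. In M1 Serping1 exceeded C3, at 42.5 against 33.4 CPM per kb, and in M3 C4b exceeded Serping1, at 26.5 against 15. Cd59a thus ranked above 6 members by mean in wildtype and above C2 and Cfb alone in mutant. With the longest transcript as the length, Cd55 came to 3.75 in wildtype, above Cd59a, and 8.22 in mutant, above C1s1.

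Of the 44 other complement genes listed, 22 were tested; 5 rose and 1 fell, where 5.59% of all genes tested rose and 4.46% fell. Of these 22, 10 entered the test only through their mutant libraries, and among the genes that rose this held for C1qa, Masp1, Itgax and Itgb2, so their direction was in part fixed by the filter. Without single libraries 1 to 6 of the 22 rose: 1 with M2 omitted, 2 with M1 or M3 omitted, 3 with W2 omitted, 4 with W3 omitted and 6 with W1 omitted. Itgam was called each time, and Susd4 was not called without M1 or M3. The counts over all genes in the same fits are given above with those of the members.

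Among the initiators, C1qa, a chain of C1q, rose by 2.63 ± 0.61 (adjusted p = 0.031, edgeR), from 0.665 ± 0.388 to 4.15 ± 0.932 CPM. The C1qa call was lost on leaving out any library but W1 (adjusted p = 0.058 to 0.15, edgeR). The other chains did not pass, at 2.26, 2.72 and 3.51 CPM in M1 to M3 and 1.13, 1.70 and 0.802 CPM in W1 to W3 for C1qb, and at 2.45, 4.05 and 8.15 and 0, 2.67 and 0.267 CPM for C1qc. The 3 chains assemble into 1 protein that macrophages make. Of the 9 leukocyte markers 8 were tested and 5 rose, where 5.59% of all genes tested rose. Ptprc, the CD45 antigen, rose from a mean of 0.718 to 12.7 CPM. Cd68, at 12.6 CPM in wildtype and 13.8 CPM in mutant, did not pass (adjusted p = 0.83, edgeR), nor did Adgre1 (0.26) or Lyz2 (0.057). The part of these markers in the C1q genes was not tested. Masp1, a protease of the lectin pathway, stood at 11.6, 8.16 and 2.84 CPM in M1 to M3 and 0.284, 0.454 and 0 CPM in W1 to W3, a rise of 4.91 ± 0.96 (adjusted p = 0.017, edgeR) whose size is uncertain with so few wildtype counts. The call of Masp1 was lost with limma-voom (adjusted p = 0.15) and, by edgeR, without M1 or M2. Masp1 makes several proteins by splicing that the counts do not separate. Masp2, its partner protease, stood at 0.222 to 0.306 CPM in mutant and 0.568 to 3.42 CPM in wildtype and did not pass (adjusted p = 0.081, edgeR). DESeq2 called Masp2 lower (adjusted p = 0.031), and limma-voom did not (0.25). Masp2 entered the test only through its wildtype libraries, so its direction was in part fixed by the low-count filter. Of the Masp2 exon bases, 54.9% overlap Tardbp on the opposite strand. The collectin Mbl1 and its relative Mbl2 had no counts.

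The terminal pathway was close to the floor. Of its 7 genes C7 alone was tested, with a log2 difference of 0.50 ± 0.83 (adjusted p = 0.78, edgeR), and the 7 summed to 0.918 to 3.22 CPM in mutant and 0.908 to 1.93 CPM in wildtype. C8a, C8b and C9, which build the pore, had no counts in any library, and Hc, the C5 gene, had 0, 1 and 1 counts in M1 to M3 and none in wildtype. At this depth 3 counts, the limit that a count of 0 allows, are 0.135 to 0.184 CPM per library, counting error only. Cfd, the factor D that activates factor B, also had no counts. None of the 5 contact system genes listed, which include some other targets of the C1 inhibitor, had enough counts to be tested.

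Among the other regulators tested, 1 gene fell and none rose by edgeR. Susd4, a membrane inhibitor of the C3-cleaving enzymes, fell by 1.15 ± 0.22 on the log2 scale (adjusted p = 0.016, edgeR), from 24.7 ± 5.75 to 11.1 ± 1.74 CPM, with no overlap. Cr1l, the broadly expressed rodent regulator Crry, stood at 30.9, 28.5 and 28.3 CPM in M1 to M3 and 26.9, 28.8 and 28.9 CPM in W1 to W3. Its difference was 0.05 ± 0.13 (adjusted p = 0.86, edgeR), and ran from -0.04 to 0.07 over the alternatives. Clu, the abundant clusterin, was at 365 ± 94.8 CPM in mutant and 219 ± 41.1 CPM in wildtype (0.73 ± 0.21, adjusted p = 0.068, edgeR). DESeq2 called Clu higher (adjusted p = 0.0057), and limma-voom did not (0.053).

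Of 6 complement receptor genes tested, 3 rose and none fell, where 5.59% of all genes tested rose and 4.46% fell. Itgax and Itgb2 entered the test only through their mutant libraries, so their direction was in part fixed by the filter. Itgam and Itgax, the alpha chains of complement receptors 3 and 4, rose by 1.58 ± 0.23 and 4.65 ± 0.96, and Itgb2, their shared beta chain, by 3.48 ± 0.67 (adjusted p = 0.0050, 0.021 and 0.016, edgeR). The Itgax call was lost without M1, M2, M3 or W2 (adjusted p = 0.067 to 0.10, edgeR) and the Itgb2 call without M2, M3 or W2 (0.052 to 0.086). Itgam stood at 82.6, 90.5 and 103 CPM in M1 to M3 and 42.8, 26.1 and 23.7 CPM in W1 to W3, and Itgb2 at 3.31 to 6.53 CPM in mutant and 0.113 to 0.695 CPM in wildtype. Another gene on its strand, Gm49368, covers 68.7% of the Itgam exon bases, so Itgam is uncertain. Per exon length the means of Itgam were far above those of its partner Itgb2. They were 6.14 CPM per kb in wildtype and 18.3 in mutant, against 0.15 and 1.70 for Itgb2. The receptors of the C3a and C5a fragments were near the floor: C3ar1 had 3, 11 and 27 counts in M1 to M3 and 0, 12 and 0 in W1 to W3, and C5ar1 0, 8 and 34 and 0, 1 and 0. These receptor genes are known from leukocytes, and the leukocyte markers were higher in the same libraries. The part of leukocytes in the receptor genes, and the source of the Itgam counts, were not tested.

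**Figure D4:**
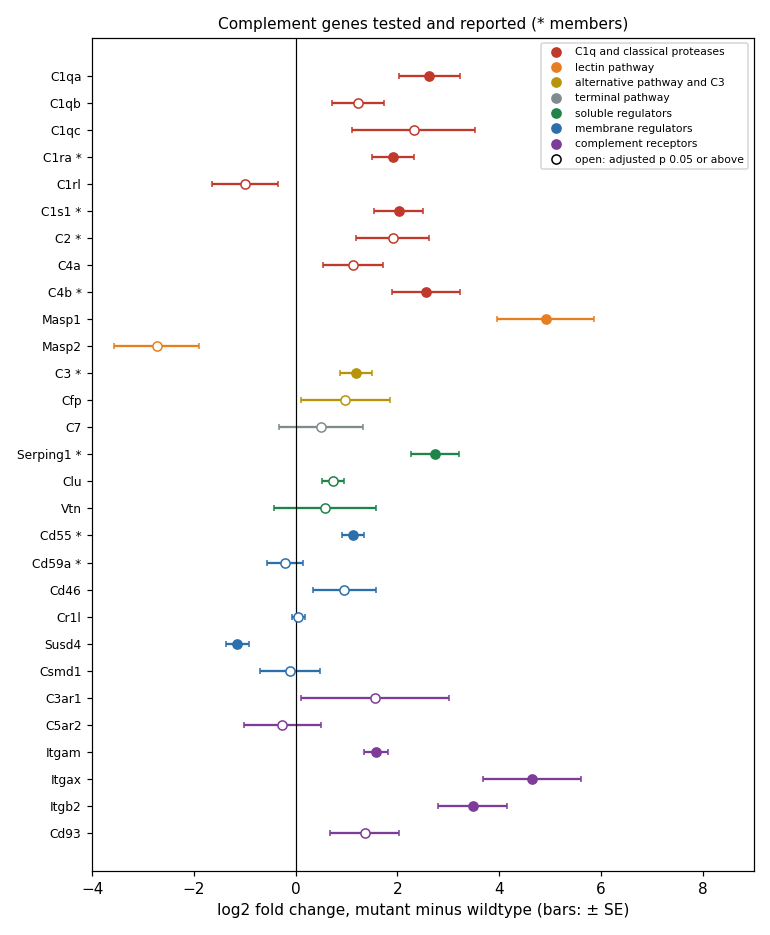
Log2 fold change (mutant minus wildtype, horizontal axis) with its SE for the complement genes tested and reported here, by role (colour); filled points passed an adjusted p of 0.05 by edgeR, open points did not, and stars mark the members. Of the membrane regulators Cd55 (filled) and Cd46 (open) are to the right of 0, Susd4 to the left, and Cd59a, Cr1l and Csmd1 near it.

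Genes near the members were also counted, with the members themselves left out. Of 38 such genes tested, with a body within 100 kb of a member, 2 rose and 1 fell. That is near the share over all genes tested, of which 5.59% rose and 4.46% fell. Slc44a4, a choline transporter family gene near C2 and Cfb (chromosome 17, 34914466 to 34930436), rose by 1.76 ± 0.16 (adjusted p = 0.00079, edgeR), and Atf6b, near C4b, by 0.60 ± 0.15 (adjusted p = 0.045, edgeR). Trip10, near C3, fell by 0.76 ± 0.15 on the log2 scale (adjusted p = 0.019, edgeR). Apart from C1ra and C1s1, which adjoin each other, no tested neighbour of C1ra, C1s1, Serping1, Cd55 or Cd59a was called by edgeR.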

How the data were processed

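Per the labels, total RNA went into a stranded low-input kit with paired reads of 100 nucleotides. The submitters' processing notes name HISAT2, HTSeq, SAMtools, Trim Galore and edgeR with build GRCm38, and neither versions nor the strand option of counting. The authors deposited raw counts per Ensembl gene, without normalization. The lines that name no gene (50.3% to 55.7% of each file's total) were left out. Of 55421 IDs, 55240 matched GENCODE M21 on the same build, which gave names, positions and exons.

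Counts were filtered with filterByExpr (minimum count 10, total 15), leaving 15209 genes, scaled by TMM and tested with edgeR 4.0.16 in R 4.3.3 (quasi-likelihood test, Benjamini-Hochberg over all genes, threshold 0.05), with genotype as the only term. The SE is the fold change over the root of the F statistic. CPM uses the TMM-scaled library sizes; log2 CPM has a prior count of 2. The fit was tested on simulated data. Within a genotype, the chi-square per degree of freedom between libraries was 17.8 to 53.9, so no pair was a repeat deposit within counting noise; that the libraries are biological replicates is the series design's statement. P-values measure the spread between these libraries only.

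The members and lists were chosen with earlier results of these data known. All 9 members are named. Other complement genes and neighbours within 100 kb are named when past the threshold, or as close copies. C1qb, C1qc, Masp2, Clu, Cr1l, Cd46, Csmd1, C7, C3ar1, C5ar1 and the genes named as at or near 0 counts were added after their values were seen. Of the tested complement genes, 1 is not reported here. The 3 genes most like C3 were taken by smallest root mean square difference among genes with an official symbol. Other settings tried were DESeq2 1.42.0, limma-voom (limma 3.58.1), scaling by RLE, by the upper quartile or by totals alone, 2 other low-count filters, removal of mitochondrial and structural RNA genes, an adjusted p of 0.01 and leaving out libraries; for the Cfb bound the last was added after seeing the data.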

Additional observations from a re-analysis of the deposited data

How the results depend on the processing

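None of the 8 tested members changed sign in the alternative fits; Cfb was fitted only with no low-count filter. Leaving out 1 library gave 1 to 6 members higher and 0 lower, 1 to 6 other complement genes higher and 0 to 1 lower, 340 to 1227 of all genes higher and 271 to 847 lower, and 1 to 2 neighbouring genes higher and 0 to 3 lower. At an adjusted p of 0.01, edgeR called 0 members, 1 other complement gene higher and 0 lower, 307 of all genes higher and 261 lower, and 1 neighbour higher and 0 lower. DESeq2 called 1325 genes higher and 1033 lower, with 2 other complement genes and 3 neighbours lower. With no low-count filter 1588 genes were higher and 1137 lower, 8 other complement genes were higher and 3 neighbours lower. The count of lower neighbours, 1 in the report, was also 3 with limma-voom, upper-quartile factors or no composition factors, and 2 without mitochondrial and structural RNA genes or without both M1 and W1; that of higher neighbours was 1 with RLE factors. Without both M1 and W1, 4 members were higher. C4b was not called with upper-quartile factors (adjusted p = 0.052, edgeR) or no composition factors (0.061). The activator to regulator difference was 0.78 with means of log2 CPM. The stricter threshold lowers the number of calls by construction; the cause of the other changes was not tested. No paired analysis was possible because the labels give the genotypes no shared replicate numbers. Groups of 3 are too small for a check of single outlying libraries.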
